A study of Mus musculus with 8 samples.

Results

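Yy1, its paralogs Yy2 and Zfp42, and the genes Rybp, Yaf2 and Gon4l, whose proteins join YY1 to chromatin-modifying complexes, were followed in an alpha cell line carrying a Yy1 plasmid. These 6 genes were taken by name from the 75078 Ensembl genes of the deposited table, and all 6 had a row. The cells were aTC1-6, a glucagon-producing line of mouse alpha cells. The 4 Yy1 plasmid libraries (samples 45, 46, 47 and 48) came from cells transfected with a Yy1-overexpressing plasmid, and the 4 empty plasmid libraries (samples 31, 32, 33 and 34) from cells given a stuffer plasmid. Both groups were seeded at a density labelled 800K and transfected 24 h later in DMEM labelled 11 mM. The promoter and insert of the plasmid, the share of cells that took it up and the time of harvest are not given in the sources used here. The labels name separate samples without saying that they were separate cultures, so the spread behind each p-value may be technical only.

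YY1 is a zinc finger transcription factor that binds a short word in promoters and enhancers, and it can activate or repress. Yy2 is a retrocopy of Yy1 on the X chromosome, and Zfp42, also called Rex1, is a related gene best known as a marker of mouse embryonic stem cells. RYBP and YAF2 are related proteins that bind YY1 and sit in the variant forms of Polycomb repressive complex 1, which puts ubiquitin on histone H2A. GON4L is a nuclear protein that binds YY1 together with the corepressor SIN3A and the deacetylase HDAC1.

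The paralogs resemble Yy1 most in the zinc fingers, so the first pair of fingers is printed here from the GENCODE M21 transcripts (build GRCm38) to show how well reads of the 3 genes can be told apart. Each line is coding sequence, 5′ to 3′. Capitals in the Yy1 line mark bases that differ in Yy2, and capitals in the Yy2 and Zfp42 lines mark bases that differ from Yy1.
Yy1: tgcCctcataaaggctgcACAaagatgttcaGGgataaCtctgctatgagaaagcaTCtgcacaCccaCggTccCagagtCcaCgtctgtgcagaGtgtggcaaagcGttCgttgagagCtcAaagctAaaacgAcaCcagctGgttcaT
Yy2: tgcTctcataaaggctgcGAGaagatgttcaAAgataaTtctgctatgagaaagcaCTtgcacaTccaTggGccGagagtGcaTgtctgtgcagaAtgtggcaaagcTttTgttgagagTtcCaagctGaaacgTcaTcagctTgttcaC
Zfp42: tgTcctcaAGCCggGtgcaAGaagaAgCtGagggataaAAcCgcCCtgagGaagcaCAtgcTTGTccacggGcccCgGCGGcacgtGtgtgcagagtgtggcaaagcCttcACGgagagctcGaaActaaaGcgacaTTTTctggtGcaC

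These 150 bases start at base 892 of the Yy1 coding sequence, base 784 of that of Yy2 and base 514 of that of Zfp42. Over the 330 bases that span all 4 fingers, Yy1 and Yy2 were identical at 273 positions (82.7%), and Yy1 and Zfp42 at 249 (75.5%). The differences are spread along the stretch, and the longest run that Yy1 and Yy2 share there was 32 bases. This run covers the end of the third finger, at bases 1102 to 1133 of the Yy1 coding sequence, and is shown because it is the source of the only words of 31 bases common to both genes.
Shared run of Yy1 and Yy2: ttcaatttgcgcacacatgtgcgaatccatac

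A word of 31 bases is the usual unit by which kallisto, a tool named in the submitters' processing notes, assigns reads. Only 10 of the 6387 such words of Yy1 (0.157%) occurred in a transcript of any other gene, and 2 of these were the pair in Yy2. The estimated Yy1 counts were whole numbers to within 0.001 in 8 of 8 libraries. Zfp42, Rybp, Yaf2 and Gon4l shared 0 words with Yy1.

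Yy1 itself (ENSMUSG00000021264, chromosome 12) was far higher with the Yy1 plasmid. It stood at 5897, 4814, 5118 and 5103 CPM (estimated counts scaled to library size) in Yy1 plasmid 45, 46, 47 and 48, against 176.6, 168.0, 174.8 and 180.9 CPM in empty plasmid 31, 32, 33 and 34. The lowest Yy1 plasmid library lay far above the highest empty plasmid library. The log2 fold change was 4.90 (SE 0.0619, 95% interval 4.77 to 5.03, edgeR quasi-likelihood test, adjusted p = 7.38e-24), a 29.9-fold difference with an interval of 27.3 to 32.7. The two-sided exact permutation test of log2(CPM + 1) gave p = 0.0286, the smallest that 4 against 4 libraries allow. Transcripts of the plasmid and of the endogenous gene enter the same row and were not separated. In bulk samples, fewer cells with a transcript and less transcript per cell cannot be told apart, so each value is a mean over cells with and without the plasmid.

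Within each group, Yy1 varied from library to library. The coefficient of variation was 8.87% over the Yy1 plasmid libraries and 3.05% over the empty plasmid libraries. The most Yy1 was in Yy1 plasmid 45, 1.23 times the level of Yy1 plasmid 46, which held the least.

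**Figure D1:**
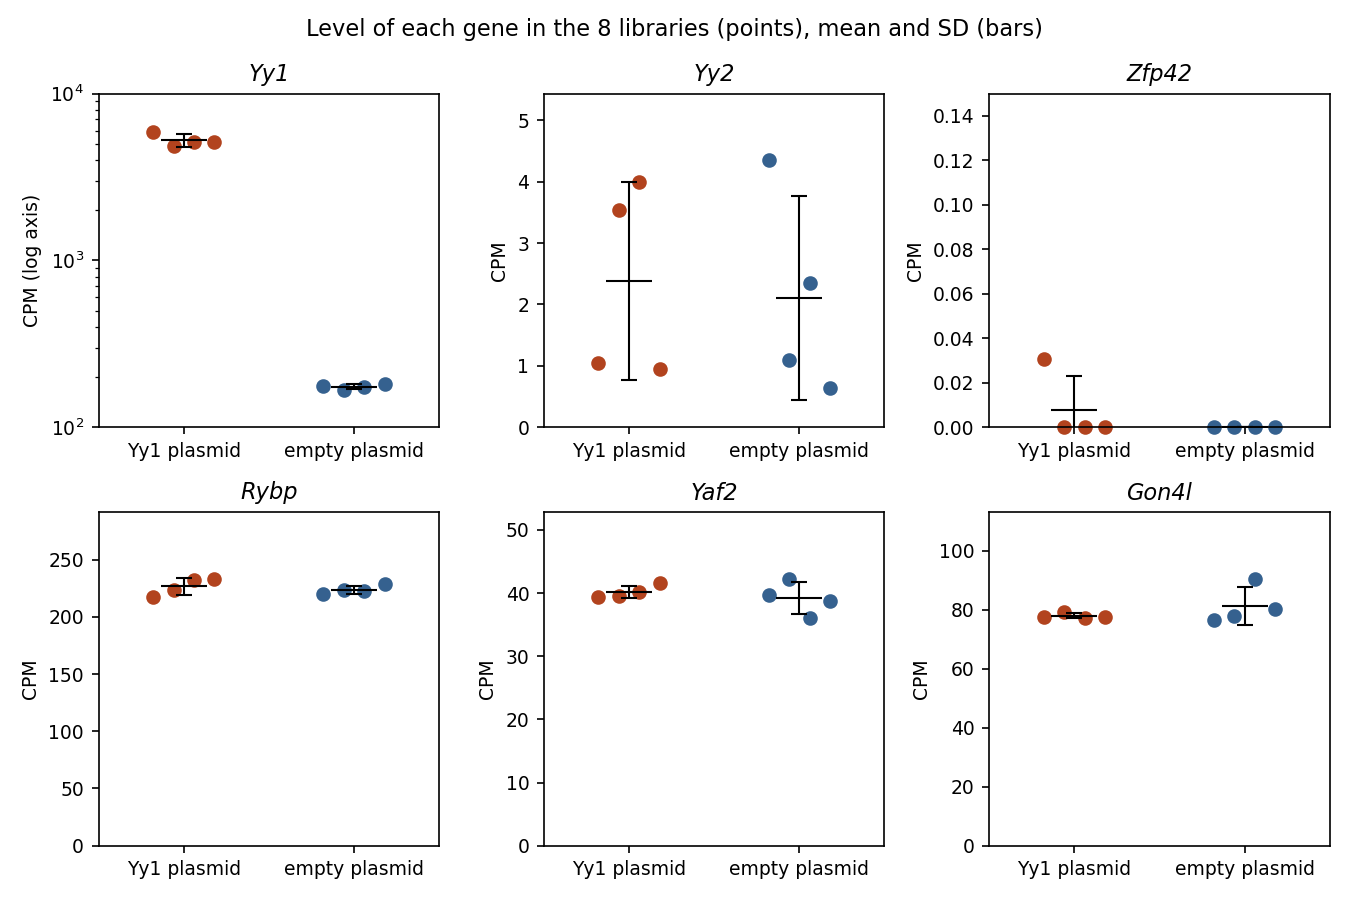
Level of each of the 6 genes in CPM (y axes; log axis for Yy1, linear from 0 for the others) in the 4 Yy1 plasmid libraries (left) and the 4 empty plasmid libraries (right); points are libraries, bars the mean and SD. Yy1 lies at 4814 to 5897 CPM with the Yy1 plasmid, above its 168.0 to 180.9 CPM with the empty plasmid, while the points of the other 5 genes overlap or lie at or near 0.

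Levels of different genes were set side by side per kilobase of the longest annotated transcript. On this scale Yy1 averaged 847 ± 75.1 CPM per kb with the Yy1 plasmid and 28.3 ± 0.863 CPM per kb with the empty plasmid (SD, n = 4 each). It ranked between 28 and 31 among 14358 tested genes with an annotated length in the Yy1 plasmid libraries, and between 2324 and 2555 in the empty plasmid libraries. The per-length level of Yy1 was 16.9 ± 1.94 times that of Rybp with the Yy1 plasmid and 0.570 ± 0.0160 times with the empty plasmid. The ratio to Yaf2 was 39.5 ± 3.92 with the Yy1 plasmid and 1.36 ± 0.113 with the empty plasmid, and that to Gon4l 81.9 ± 7.78 with the Yy1 plasmid and 2.64 ± 0.203 with the empty plasmid (SD, n = 4 each). In cells with the empty plasmid, Rybp thus came first by level per length, then Yy1, Yaf2 and Gon4l, with library ranges that did not overlap between neighbours in this order. In cells with the Yy1 plasmid, Yy1 moved to the top and the order of the other 3 genes was the same. The annotated Yy1 transcript is 4.97 times as long as its coding part. If the plasmid carries less of the transcript, the per-length levels with the Yy1 plasmid are too low by up to that factor. Yy1 would then rank as high as given here or higher.

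**Figure D2:**
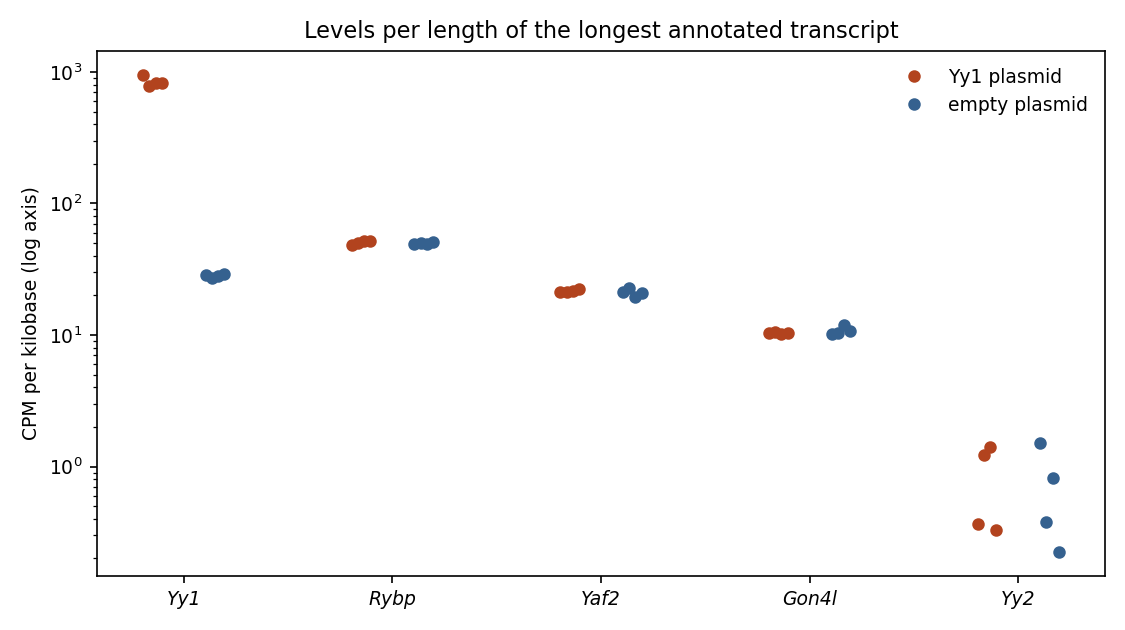
Level per length (CPM per kilobase of the longest annotated transcript, log axis) of 5 of the genes in each library, Yy1 plasmid left and empty plasmid right; each point is a library. Rybp, Yaf2 and Gon4l overlap between the groups and stand in the same order in both, Yy1 lies below Rybp with the empty plasmid and above all of them with the Yy1 plasmid, and the Yy2 points scatter widely in both groups.

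Of the 2 paralogs, Zfp42 (ENSMUSG00000051176, chromosome 8) was not detectable at this depth. It had 1, 0, 0 and 0 counts in Yy1 plasmid 45, 46, 47 and 48, against 0 in each of the 4 empty plasmid libraries. A count of 0 allows up to 3 counts, covering counting error only. This limit is between 0.0900 and 0.101 CPM in Yy1 plasmid 46, 47 and 48 and between 0.0981 and 0.145 CPM in the empty plasmid libraries. It uses library totals without TMM scaling and does not hold for Yy1 plasmid 45, which had 1 count. The gene did not pass the filter on low counts and was not tested in the main fit. Of its 31-base words, 13.4% also occurred in the pseudogene Zfp42-ps1.

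Yy2 (ENSMUSG00000091736, chromosome X) had low and scattered estimates. They were 34.3, 105, 133 and 30.2 counts in Yy1 plasmid 45, 46, 47 and 48, and 134, 29.5, 47.8 and 17.7 counts in empty plasmid 31, 32, 33 and 34. Scaled to library size, Yy2 was at 1.04, 3.535, 4.002 and 0.941 CPM in Yy1 plasmid 45, 46, 47 and 48. In empty plasmid 31, 32, 33 and 34 it was at 4.35, 1.09, 2.35 and 0.644 CPM. The groups overlapped over nearly their whole range. Yy2 averaged 2.38 ± 1.61 CPM with the Yy1 plasmid and 2.11 ± 1.66 CPM with the empty plasmid (SD, n = 4 each), a log2 fold change of 0.16 with a 95% interval of -1.69 to 2.01 (SE 0.763, edgeR adjusted p = 0.997). The ends of this interval correspond to 0.309 and 4.03 times the level with the empty plasmid.

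In GENCODE M21, the sequence of Yy2 lies wholly within that of Mbtps2, which encodes a protease that processes membrane-bound transcription factors. This annotation is of an older build than the GRCm39 named in the submitters' processing notes, and whether the overlap is the same in the annotation behind the deposited counts was not tested. In GENCODE M21, the only exon of Yy2, 2867 bases long, lies on the same strand wholly inside an exon of 2 of the 8 Mbtps2 transcripts. As a result 2837 of the 2837 words of Yy2 (100%) also occurred in Mbtps2, against 2 that occurred in Yy1. The estimates of Yy2 were fractional in 8 of 8 libraries. Yy2 took 2.75%, 9.18%, 10.4% and 2.50% of the counts of both genes in Yy1 plasmid 45, 46, 47 and 48, against 11.4%, 2.83%, 6.78% and 1.55% in empty plasmid 31, 32, 33 and 34. The per-library log2 ratio of Yy2 to Mbtps2 averaged -4.21 ± 1.16 with the Yy1 plasmid and -4.46 ± 1.35 with the empty plasmid (SD, n = 4 each; two-sided exact permutation p = 0.743).

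The sum of both genes varied far less between libraries than Yy2 alone. It came to 38.2, 38.5, 38.6 and 37.8 CPM in Yy1 plasmid 45, 46, 47 and 48, and to 38.2, 39.1, 34.6 and 40.9 CPM in empty plasmid 31, 32, 33 and 34. The coefficient of variation over the Yy1 plasmid libraries was 0.894% for the sum and 67.9% for Yy2 alone, and over the empty plasmid libraries it was 7.01% for the sum and 78.7% for Yy2 alone. For Mbtps2 alone it was 3.64% over the Yy1 plasmid libraries and 10.3% over the empty plasmid libraries. Yy2 was between 1.55% and 11.4% of the counts of both genes over the 8 libraries. The sum therefore largely follows Mbtps2, and Mbtps2 alone is the nearer comparison. Tested as 1 row, an analysis chosen after the overlap was seen, the locus changed by -0.00032 on the log2 scale (SE 0.0524, edgeR adjusted p = 0.999), and the 95% interval of the difference in level was -7.27% to 7.79%.

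**Figure D3:**
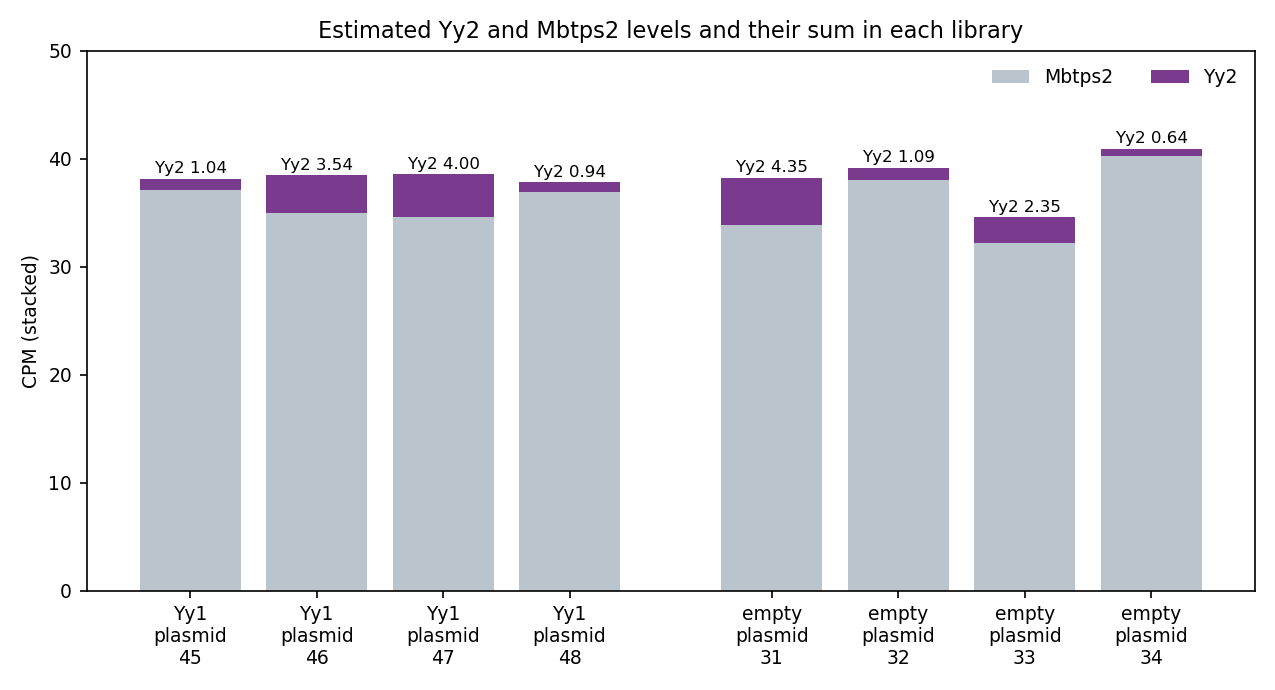
Estimated levels of Mbtps2 (grey) and Yy2 (purple) in CPM, stacked, in each library, Yy1 plasmid left and empty plasmid right, with the Yy2 value above each bar. The bars reach 37.8 to 38.6 CPM with the Yy1 plasmid and 34.6 to 40.9 CPM with the empty plasmid, while the Yy2 part varies from 0.941 to 4.002 CPM with the Yy1 plasmid and from 0.644 to 4.35 CPM with the empty plasmid.

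The 3 bridging partners showed no change that passed the test. Of the 5 members that passed the filter on low counts, edgeR called Yy1, the gene on the plasmid, and no other. At the same threshold, an adjusted p below 0.05, it called 82 of 15916 tested genes (0.515%), 0.496% as higher with the Yy1 plasmid. The groups were disjoint, with no value of one inside the range of the other, for 3.95% of tested genes and, among the members, for Yy1 alone. The 95% intervals of the 3 partners lay between -10.3% and 10.1%. They were called by no alternative normalization, filter or test that was run, nor without any single library.

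Rybp (ENSMUSG00000072872, chromosome 6), the RING1 and YY1 binding protein, was the most abundant partner. It had 217.6, 223.8, 232.4 and 233.4 CPM in Yy1 plasmid 45, 46, 47 and 48, and 220.1, 223.6, 223.1 and 228.4 CPM in empty plasmid 31, 32, 33 and 34. The Yy1 plasmid libraries included both the lowest and the highest of the 8 values. The log2 fold change was 0.019 (SE 0.0382, edgeR adjusted p = 0.997), with a 95% interval of -4.09% to 7.04% in level. Of its words, 10.7% were shared with the pseudogene Rybp-ps, and its counts were whole in 7 of 8 libraries.

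Yaf2 (ENSMUSG00000022634, chromosome 15), the YY1-associated factor that takes the same place as RYBP in variant Polycomb complexes, stood lower. It had 39.4, 39.5, 40.2 and 41.6 CPM in Yy1 plasmid 45, 46, 47 and 48, and 39.7, 42.3, 36.1 and 38.8 CPM in empty plasmid 31, 32, 33 and 34. All 4 Yy1 plasmid values lay inside the range of the empty plasmid libraries. The log2 fold change was 0.032 (SE 0.0516, edgeR adjusted p = 0.997), with a 95% interval of -5.04% to 10.1% in level. None of its words occurred in another gene.

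The balance between these related subunits was compared within each library, where no scaling is needed. The log2 ratio of Rybp to Yaf2 counts averaged 2.50 ± 0.0288 with the Yy1 plasmid and 2.52 ± 0.0976 with the empty plasmid (SD, n = 4 each). The difference of -0.018 was smaller than the spread of either group (two-sided exact permutation p = 0.743). Rybp supplied between 84.7% and 85.3% of the counts of both genes with the Yy1 plasmid, and between 84.1% and 86.1% with the empty plasmid. Because their transcripts differ in length, this share is one of reads and not of molecules.

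Gon4l (ENSMUSG00000054199, chromosome 3) had the lowest level per length of the partners. It had 77.7, 79.4, 77.3 and 77.6 CPM in Yy1 plasmid 45, 46, 47 and 48, and 76.5, 78.0, 90.5 and 80.2 CPM in empty plasmid 31, 32, 33 and 34. The groups overlapped, and empty plasmid 33 was the highest of all. The log2 fold change was -0.058 (SE 0.0478, edgeR adjusted p = 0.980), with a 95% interval of -10.3% to 2.91% in level, and without empty plasmid 33 it was -0.0046 (edgeR adjusted p = 0.996). Gon4l counts were fractional in 8 of 8 libraries. On the same strand 41.3% of its words occurred in other genes, and 5830417I10Rik alone shared 40.5%. On the opposite strand 1500004A13Rik shared 28.3% and Msto1 10.7%, and since counting by strand is not stated, their reads may not be told apart from those of Gon4l. The log2 difference was -0.028 for 5830417I10Rik (SE 0.0545, edgeR adjusted p = 0.997). Of the 1170 tested genes that shared at least 1 word with Gon4l on either strand, 3 were called. Over all tested genes 82 of 15916 were called (0.515%).

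**Figure D4:**
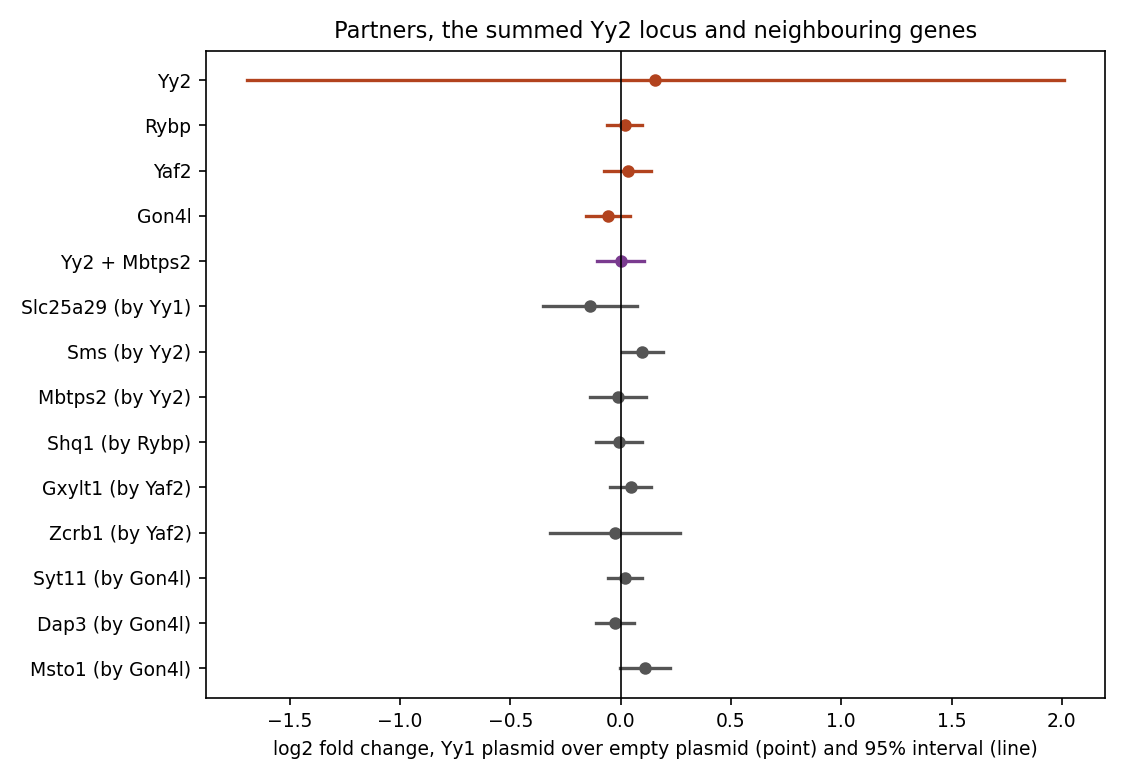
Log2 fold change of Yy1 plasmid over empty plasmid (points) with 95% intervals (lines) for Yy2, Rybp, Yaf2 and Gon4l, for Yy2 and Mbtps2 summed, and for tested neighbouring or overlapping genes. The Yy2 interval spans -1.69 to 2.01, while those of Rybp, Yaf2, Gon4l and the summed locus lie between -0.157 and 0.139.

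The genes next to the members in the genome were read as well, since a plasmid copy has no neighbours. The nearest protein-coding genes to Yy1 are Slc25a29, a mitochondrial carrier gene, and Degs2, a sphingolipid desaturase gene. Slc25a29 stood at 7.601 ± 0.672 CPM with the Yy1 plasmid and 8.33 ± 1.14 CPM with the empty plasmid (SD, n = 4 each; log2 fold change -0.14, SE 0.103, edgeR adjusted p = 0.980). Degs2 had 0 counts in all 8 libraries. None of the tested genes beside or overlapping the other members was called. The smallest p among them was that of Sms, the spermine synthase gene next to the Yy2 locus, at 65.5 ± 1.251 CPM with the Yy1 plasmid and 61.1 ± 2.92 CPM with the empty plasmid (SD, n = 4 each; log2 fold change 0.099, SE 0.0440, edgeR adjusted p = 0.866), with disjoint groups. For Msto1, which overlaps Gon4l on the opposite strand, the log2 difference was 0.11 (SE 0.0547, edgeR adjusted p = 0.911).

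YY1's own recognition word was looked for in the promoters of the members, from 250 bases before to 50 after the RefSeq start (build GRCm38.p6). The table held those of Yy1, Yy2, Zfp42 and Gon4l. The core word GCCAT, on either strand, was in 40.5% of the 32851 promoters of the table, and the longer word GCCATNTT, which contains it, in 6.05%. Among these 4 members only Gon4l held the core word, at 3 places, a pair of which overlap on opposite strands. None of the 4 held the longer word in this window. Both windows of Gon4l are shown, with the core word or its reverse complement in capitals, because this is the only one of the 4 promoters that holds it.
Gon4l, chr3:88834981-88835028, plus strand: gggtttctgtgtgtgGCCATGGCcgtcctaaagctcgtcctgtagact
Gon4l, chr3:88835127-88835181, plus strand: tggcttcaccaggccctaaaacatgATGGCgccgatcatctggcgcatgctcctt

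The distal match begins at position -235 from the start and the proximal one at position -79. A match is a description of the letters and not a bound site, and no binding was measured here.

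The genes of the complexes around Yy1 were read from 4 lists, all of whose 67 distinct genes were tested. EdgeR called 0 of the 67, where 0.515% of all tested genes were called. An unadjusted p under 0.05 was found for 2 of them, against 5.42% of all tested genes, and the groups were disjoint for 2, against 3.95% of all. Their median log2 fold change was -0.015, beside -0.0025 over all tested genes. Of the 67, 66 lay within 0.2 of 0, as did 13279 of all 15916 tested genes. The listed genes and all tested genes were not matched for expression level. These shares therefore do not tell whether the listed genes changed less.

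The variant Polycomb partners of RYBP and YAF2 had 5 positive and 18 negative log2 fold changes among 23 genes, with a median of -0.023 and a range from -0.10 to 0.071. Over all tested genes, 48.6% of log2 fold changes were positive and 51.4% negative. The smallest p values belonged to Fbrs (-0.10, SE 0.0542), Bcor, a corepressor (-0.066, SE 0.0431), and Hdac2, a histone deacetylase (-0.081, SE 0.0672), with edgeR adjusted p values of 0.929, 0.956 and 0.981.

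INO80 is a chromatin remodelling complex of which YY1 is a subunit. Its 14 listed genes had a median log2 fold change of -0.018. Ino80c stood at 19.2 ± 0.706 CPM with the Yy1 plasmid and 20.8 ± 0.638 CPM with the empty plasmid (SD, n = 4 each), with disjoint groups but without a call (log2 fold change -0.11, SE 0.0602, edgeR adjusted p = 0.930). Ino80d had 0.12 (SE 0.0954) and Mcrs1 0.055 (SE 0.0453).

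Among 21 coregulators of Yy1 the median was -0.0024. Ldb1, an adaptor that joins enhancers to promoters, stood at 94.1 ± 1.32 CPM with the Yy1 plasmid and 101.0 ± 2.97 CPM with the empty plasmid (SD, n = 4 each; log2 fold change -0.10, SE 0.0394, edgeR adjusted p = 0.688). Its groups were disjoint. Crebbp, a histone acetyltransferase, stood at 90.7 ± 2.80 CPM with the Yy1 plasmid and 82.7 ± 8.36 CPM with the empty plasmid (SD, n = 4 each; log2 fold change 0.13, SE 0.0564, edgeR adjusted p = 0.858). Sap30, a subunit of the SIN3 complex, had -0.10 (SE 0.0565).

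The last list held proteins with malignant brain tumour (MBT) repeats, relatives of the partner of the fly YY1 homologue, and the core of Polycomb repressive complex 2. Its 10 genes had a median of -0.013. The log2 difference was -0.12 for Sfmbt2 (SE 0.0672) and 0.050 for Sfmbt1 (SE 0.0494). L3mbtl1 had 0.56 (SE 0.370) at 0.559 ± 0.123 CPM with the Yy1 plasmid and 0.393 ± 0.198 CPM with the empty plasmid (SD, n = 4 each; edgeR adjusted p = 0.956), with overlapping libraries.

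**Figure D5:**
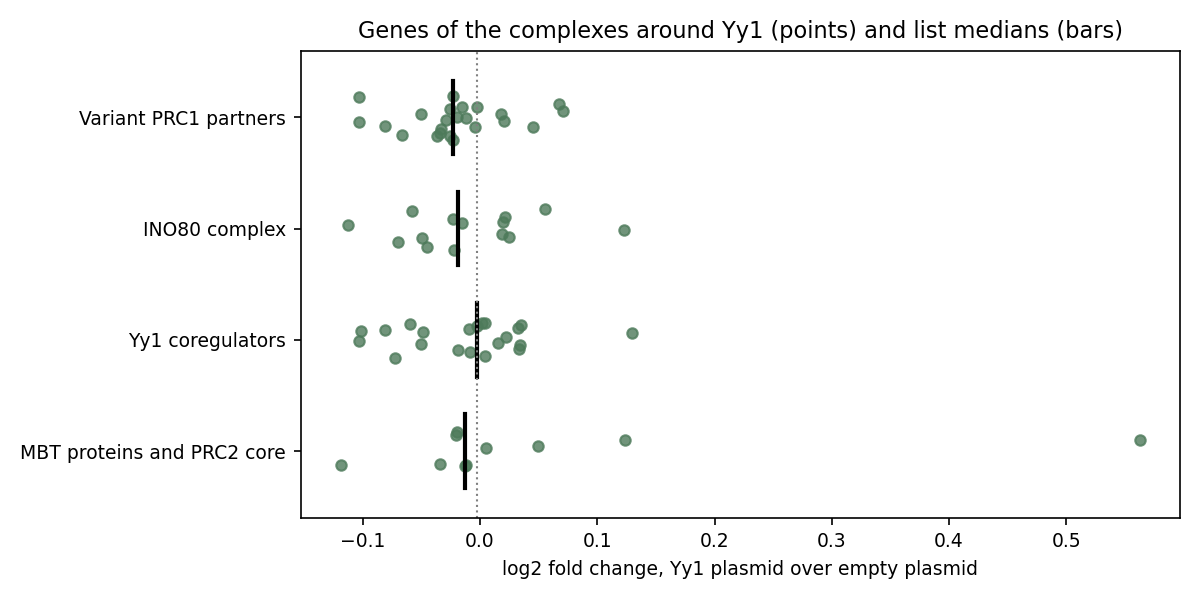
Log2 fold change of Yy1 plasmid over empty plasmid for each gene of the 4 lists (points), with the list's median (black bar) and the median of all tested genes (dotted line); vertical scatter within a list has no meaning. The list medians lie between -0.023 and -0.0024, and L3mbtl1 at 0.56 is the only point beyond 0.2 from 0.

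The genes whose profile over the 8 libraries came nearest to that of Yy1 were sought by the root mean square distance between log2 CPM values, each gene centred on its own mean. The 5 nearest with a symbol were 2310043M15Rik (0.386), Ren1 (0.667), Gm15823 (0.877), Gm49291 (1.06) and P2rx7 (1.08), where the median over all tested genes was 2.45. 2310043M15Rik had 64, 46, 68 and 58 counts in Yy1 plasmid 45, 46, 47 and 48, and 1, 0, 0 and 2 counts in empty plasmid 31, 32, 33 and 34. Gm15823 had 21, 33, 38 and 30 counts in those with the Yy1 plasmid, and 1, 0, 2 and 0 counts in those with the empty plasmid. P2rx7, an ATP-gated channel, was the only one of the 5 above 2 CPM, at 4.90 ± 0.190 CPM with the Yy1 plasmid and 0.670 ± 0.236 CPM with the empty plasmid (SD, n = 4 each). Gm15823 is 1 of the 3 called genes that share a word with Gon4l. All 5 profiles follow the split between the groups, in which Yy1 was set by the plasmid, so the likeness describes that split. The median distance restates the Yy1 difference, since a gene with equal levels in both groups lies about that far from Yy1. A small count was added before the log was taken, so distances of genes at or near 0 with the empty plasmid depend on it.

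Over the whole series, totals were between 29680177 and 33347445 estimated counts in the Yy1 plasmid libraries and between 20679804 and 30570601 in the empty plasmid libraries, the smallest being empty plasmid 33. The 8 alpha cell markers summed to 25420 to 26220 CPM with the Yy1 plasmid and 25120 to 26190 CPM with the empty plasmid, and 0 of them were called. Gcg, which encodes glucagon, averaged 21291 CPM with the Yy1 plasmid and 21228 CPM with the empty plasmid. Ins1 and Ins2, the insulin genes of beta cells, had 0 counts in all 8 libraries. Ppy of PP cells, Prss2 and Ptf1a of acinar cells and Cftr of duct cells were also at 0. Tested were 3 of 6 beta cell markers, 1 of 3 of delta and PP cells and 1 of 5 of acinar cells. So were 2 of 4 duct markers and 3 of 8 stromal, endothelial and immune markers. None of these tested markers was called, where 0.515% of all tested genes were called. The 5 listed acinar markers together still summed to 6.52 to 7.10 CPM with the Yy1 plasmid and 6.30 to 6.73 CPM with the empty plasmid. Those of delta and PP cells summed to 0.236 to 0.721 CPM with the Yy1 plasmid and 0.264 to 0.487 CPM with the empty plasmid. Summed markers were at 49.1 to 58.9 CPM with the Yy1 plasmid and 53.0 to 57.8 CPM with the empty plasmid for beta cells, and at 4.85 to 5.71 CPM with the Yy1 plasmid and 3.92 to 6.21 CPM with the empty plasmid for stromal, endothelial and immune cells. Those of duct cells were at 6.26 to 7.15 CPM with the Yy1 plasmid and 5.27 to 5.91 CPM with the empty plasmid. This was the only marker sum whose groups were disjoint, and the part of duct cells in the results was not tested.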

How the data were processed

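Poly(A) RNA of 8 libraries was sequenced, and per the labels' protocols the libraries were strand-specific. Fastp, kallisto and the mouse build GRCm39 are named in the submitters' processing notes, without versions. The authors deposited estimated counts per Ensembl gene, not scaled for depth, and these expected counts were rounded before testing. All 8 columns were used. Whether counting used strand is not given in the sources used here. Symbols, transcripts and neighbours came from GENCODE M21 and promoters from RefSeq, both of the older build GRCm38.

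FilterByExpr (minimum count 10, total 15) removed low genes. After TMM scaling, the robust quasi-likelihood test of edgeR 4.0.16 (two-sided; R 4.3.3) was run, with Benjamini-Hochberg adjustment over all 15916 tested genes and a threshold of 0.05. Standard errors are the log2 fold change divided by the square root of F. CPM uses TMM-scaled library sizes, except in the limit that a count of 0 allows. Single values were compared by exact permutation over 70 arrangements. The edgeR step was tested on simulated data. Alternatives were RLE, upper-quartile and library-size scaling, Yy1 left out of scaling, 2 other filters, DESeq2 1.42.0, limma-voom (limma 3.58.1), unrounded counts, thinning and each library left out. The members and lists were chosen with earlier results of these data known. Named were Gcg, the 6 members, their neighbours and the host of Yy2, 3 genes of smallest p per list, and the 5 genes most like Yy1. 5830417I10Rik was added after its shared words were seen. The edgeR intervals include the spread between libraries, while the limit that a count of 0 allows covers counting error only. No protein sequence was used here.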

Additional observations from a re-analysis of the deposited data

How the results depend on the processing

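Yy1 was called under all 18 alternatives, with log2 fold changes from 4.84 to 4.94, and Rybp, Yaf2 and Gon4l under none of theirs, with edgeR, DESeq2 or limma-voom adjusted p values of 0.736 or more. Without single libraries the log2 fold change ran from 0.0030 to 0.037 for Rybp, from -0.0023 to 0.069 for Yaf2, from -0.089 to -0.0046 for Gon4l and from -0.22 to 0.85 for Yy2. The sign of Yaf2 turned without empty plasmid 33, and that of Yy2 turned without Yy1 plasmid 46 or 47 or empty plasmid 32 or 34 and when summed with Mbtps2 (-0.00032). The difference in log2 ratio ran from -0.055 to 0.019 for Rybp to Yaf2 and from -0.26 to 0.75 for Yy2 to Mbtps2. The number of genes called was 174 with no filter, where 23 were lower, 54 with a filter of 1 CPM in 4 libraries, and 65 to 87 without single libraries, and 0 genes of the 4 lists were called with either filter or without any library. The cause of these changes was not tested. Zfp42 did not pass the filter of the main fit, so it had no main value with which alternatives could be compared. No paired analysis was possible because the groups share no sample numbers. At 1 count in all, Zfp42 was not detectable at this depth.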

Other observations

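Empty plasmid 33, the smallest library, stood at an end of its group for several of these genes. It had the highest Gon4l (90.5 CPM, against 76.5 to 80.2 CPM in the other 3), the lowest Yaf2 (36.1 CPM) and the lowest sum of Yy2 and Mbtps2 (34.6 CPM), while its Yy1 (174.8 CPM) and Rybp (223.1 CPM) lay inside the range of the other 3. Its log2 ratio of Rybp to Yaf2, 2.63, was the highest of the 8 libraries. The part of depth in this was not tested. In no group did the gap of the most distant library exceed Dixon's limit for 4 samples, and the largest gap as a share of the range was that of Gon4l in Yy1 plasmid 46 (0.813).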
